A study of Mus musculus with 15 samples.

Results

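The genes described here are 10 markers and effectors of brown and beige fat, namely Ucp1, Dio2, Elovl3, Cox7a1, Cox8b, Ppargc1a, Prdm16, Ebf2, Kcnk3 and Otop1, followed in a white fat depot. They were chosen by symbol from the 19938 genes that the array names, each read through the brightest probe set that carries its symbol alone, and all 10 were measured. Gonadal white adipose tissue, the pad along the epididymis, came from 7 wild-type male mice and 8 male mice with Sfrp5 KO (Q27Stop), an allele with a premature stop codon in a secreted Wnt-binding protein. Both groups were C57BL6/J and 12 weeks old, and their diet was high in fat from week 4 of life, 8 weeks in all. There was no group on another diet, in the cold or given an adrenergic agent, and no brown fat. Each mouse gave 1 Affymetrix array, with values on the log2 scale after RMA, a method that corrects background and summarises the probes of a set.

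Brown and beige adipocytes burn fuel to make heat. Noradrenaline acts through cyclic AMP to raise lipid breakdown and the transcription of Ucp1, whose protein lets protons leak across the inner mitochondrial membrane so that respiration runs without making ATP. Gonadal fat of mice is a white depot that stores triglyceride and is known to turn beige only weakly.

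Array medians lay between 6.99 and 7.07. The targeted gene, Sfrp5, read 7.92 ± 0.24 (SD, n = 7) where intact and 6.69 ± 0.40 (SD, n = 8) where disrupted, with no overlap between the groups and limma's Benjamini-Hochberg adjusted p = 0.0200. Adipocyte markers were bright, as Adipoq, the gene of adiponectin, had 12.5 ± 0.12 (SD, n = 7) and 12.7 ± 0.09 (SD, n = 8). Genes of the adjoining epididymis stood out in knockout replicate 2, where 17 measured genes averaged 10.1, and less so in wild-type replicate 4, at 7.08, against 5.34 to 6.27 in the other 13 arrays. Macrophage genes averaged 9.76 in replicate 8 of the knockout and 9.26 in wild-type replicate 2, above all other arrays. These 4 arrays are named below wherever a value rests on them.

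The first question was whether the thermogenic genes gave a signal in this depot at all. As a yardstick for weak signal, 1015 olfactory receptor genes, a family used mainly in the nose, had a median of 4.89, and their 5th and 95th percentiles were 3.36 and 6.65. Elovl3, Ucp1 and Dio2 lay inside that range and the other 7 genes lay above it. Probe sets differ in how strongly they bind, so these values place each gene against weak signal and do not rank the genes by transcript number. In bulk tissue, fewer cells of a type and less RNA per cell cannot be told apart.

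**Figure D1:**
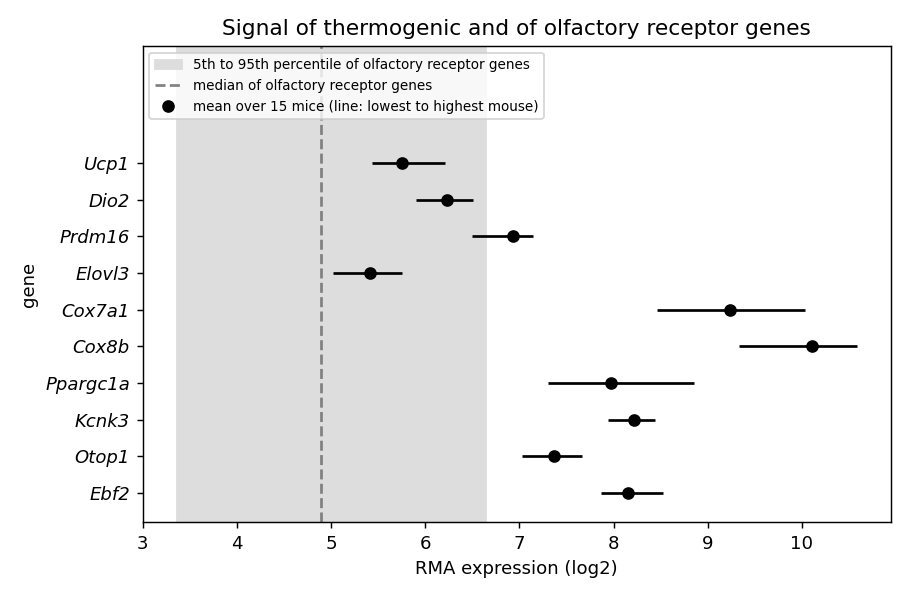
RMA expression (log2) of the 10 thermogenic genes, with a point at the mean over 15 mice and a line from the lowest to the highest mouse; the grey band runs from the 5th to the 95th percentile of 1015 olfactory receptor genes and the dashed line marks their median. Ucp1, Dio2 and Elovl3 lie within the band, and every mouse lies above it for Cox7a1, Cox8b, Ppargc1a, Kcnk3, Otop1 and Ebf2.

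Ucp1, the uncoupling protein that defines thermogenic fat, ran from 5.49 to 6.21 (median 5.76) among wild-type mice, with knockout mice at 5.43 to 5.95 (median 5.74). The highest mouse was wild-type replicate 3, and 7 of the 8 knockout mice fell within the wild-type range. Subtracting the wild-type mean from the knockout mean left -0.05 on the log2 scale (SE 0.11), the direction used for every difference here, with a 95% interval that allows a knockout level from 0.827 to 1.13 times that of the wild type. Its signal was brighter than that of 78.0% of olfactory receptor genes.

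Dio2, the deiodinase that turns thyroxine into active thyroid hormone inside brown adipocytes, ran from 6.12 to 6.50 (median 6.26) among wild-type mice, with knockout mice at 5.90 to 6.46 (median 6.14). In 6 of 8 knockout mice it lay below the wild-type mean, yet 4 of 8 fell within the wild-type range, and the difference was -0.14 (SE 0.09). Elovl3, an elongase of very long fatty acid chains that cold induces in brown fat, had the faintest signal, 5.02 to 5.72 (median 5.48) among wild-type mice, with knockout mice at 5.18 to 5.75 (median 5.41). Its difference was 0.01 (SE 0.11). Elovl3 lies on chromosome 19, as Sfrp5 does.

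Ucp1 and Dio2 are known targets of cyclic AMP, which acts through the response element TGACGTCA or its core TGACG, and so is Ppargc1a. The stretches are shown because they hold the element in Dio2, and the core alone in Ucp1 and Ppargc1a, members the signal is known to reach. Sequences upstream of the annotated start were found in RefSeq (GRCm38.p6) for 7 of the 10 genes, and the 250 bases before the start were searched on both strands. TGACGTCA was present in Dio2, against 1.55% of 32851 promoters, and the core TGACG, which TGACGTCA contains, in Ucp1, Dio2 and Ppargc1a, against 17.8% of promoters. A search for AAGGTCA, the half-site of estrogen-related receptors, found no match in the 7 promoters, while 4.08% of all promoters held one. Each sequence is written along the gene's strand with the match in capitals.
Ucp1 (chr8:83290161-83290245, plus strand): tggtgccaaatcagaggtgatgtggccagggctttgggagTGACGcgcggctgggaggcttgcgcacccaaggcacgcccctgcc
Dio2 (chr12:90739086-90739173, minus strand): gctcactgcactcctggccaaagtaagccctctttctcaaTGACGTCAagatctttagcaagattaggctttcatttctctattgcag
Ppargc1a (chr5:51567730-51567814, minus strand): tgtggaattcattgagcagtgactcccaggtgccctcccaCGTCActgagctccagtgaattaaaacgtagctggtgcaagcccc
The match began 147 bases before the start in Ucp1, 95 in Dio2 and 49 in Ppargc1a, where the core reads on the opposite strand. Across mice Ucp1 and Dio2 had r = 0.26, while Ppargc1a had r = -0.20 with Ucp1 and -0.29 with Dio2, none of which passed after adjustment over the 45 pairs described below.

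Cox7a1 and Cox8b encode subunits of cytochrome c oxidase, the last complex of the respiratory chain, in the isoforms found in heart, skeletal muscle and brown fat. Both gave clear signals here. Cox8b ran from 9.33 to 10.4 (median 9.87) among wild-type mice, with knockout mice at 9.56 to 10.6 (median 10.3). It had the largest difference of the 10 genes, 0.28 (SE 0.17), with 7 of 8 knockout mice above the mean of the wild type, the exception being knockout replicate 2. Without wild-type replicate 7 it was 0.18, smaller in size than that of Cox7a1, which was also the larger without knockout replicates 7 and 8. Cox7a1 leaned the other way, from 9.03 to 10.0 (median 9.21) among wild-type mice, with knockout mice at 8.46 to 9.45 (median 9.22), with a difference of -0.20 (SE 0.16). Its extremes were single mice, wild-type replicate 6 at the top and knockout replicate 2 at the bottom, and the medians of the genotypes nearly coincided. The Cox7a1 difference was -0.08 without the first of these and -0.10 without the second.

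Neither muscle-type subunit had a relation with skeletal muscle genes across mice that passed the test. The 17 muscle genes averaged 6.87 to 6.99 in wild-type and 6.85 to 7.06 in knockout arrays, and with genotype means subtracted Cox7a1 had r = -0.07 and Cox8b r = 0.28 with that average (permutation adjusted p = 0.841 and 0.480). For Cox7a1 r was -0.60 in wild type and 0.23 in the knockout, and for Cox8b -0.25 and 0.62. Among those genes 8 of 17 were positively correlated with Cox7a1 and 10 of 17 with Cox8b, beside 53.0% and 61.1% of all named genes. Part of the muscle genes, such as Myh4, Myh1 and Tcap, lay within the range of weak signal, which limits what their average can show. The widely expressed counterparts, Cox7a2 and Cox8a, differed between the genotypes by 0.11 (SE 0.07) and -0.05 (SE 0.07).

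Ppargc1a encodes the coactivator PGC-1 alpha, which drives mitochondrial gene expression and is induced by cold in brown fat. It had the largest SD among mice of the 10 genes, running from 7.36 to 8.44 (median 7.90) among wild-type mice, with knockout mice at 7.30 to 8.85 (median 7.94), a 2.93-fold span beside 2.97-fold for Cox7a1. Knockout replicates 4 and 2 were highest, at 8.85 and 8.73, and knockout replicate 5 was lowest, so both extremes lay in the same genotype. The genotype difference was 0.08 (SE 0.23). Its second probe set, dimmer by about 1 log2 unit, gave 0.17 (SE 0.19) and followed the first across mice with r = 0.83.

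The within-genotype SD of Ppargc1a was 0.490, larger than in 97.9% of named genes of similar brightness. Cox8b, at 0.342, and Cox7a1, at 0.324, stood at 97.3% and 95.3% in the same ranking, and Ebf2 at 77.1%. The remaining 6 genes lay between 36.6% and 66.4%.

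Prdm16, the zinc-finger regulator that sets brown over muscle fate and sustains beige cells, ran from 6.84 to 7.14 (median 7.003) among wild-type mice, with knockout mice at 6.49 to 7.15 (median 6.84). It lay below the wild-type mean in 6 of 8 knockout mice, with a difference of -0.14 (SE 0.08), or -0.08 without knockout replicate 3. Ebf2, a transcription factor of brown preadipocytes that opens chromatin at their genes, ran from 7.87 to 8.39 (median 8.27) among wild-type mice, with knockout mice at 7.94 to 8.52 (median 8.18). The difference was 0.01 (SE 0.10) and 7 of 8 knockout mice fell within the wild-type range.

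Kcnk3 encodes a potassium leak channel, TASK-1, that sets the membrane potential of brown adipocytes and other cells. It spanned the fewest log2 units of the 10, 1.41-fold in all, running from 8.08 to 8.36 (median 8.18) among wild-type mice, with knockout mice at 7.94 to 8.44 (median 8.30), with a difference of 0.03 (SE 0.08). Otop1, a proton channel used as a marker of brown fat, ran from 7.03 to 7.49 (median 7.33) among wild-type mice, with knockout mice at 7.26 to 7.67 (median 7.40). Among knockout mice 6 of 8 exceeded the mean of the wild type, and the difference was 0.12 (SE 0.07), or 0.08 without wild-type replicate 6.

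**Figure D2:**
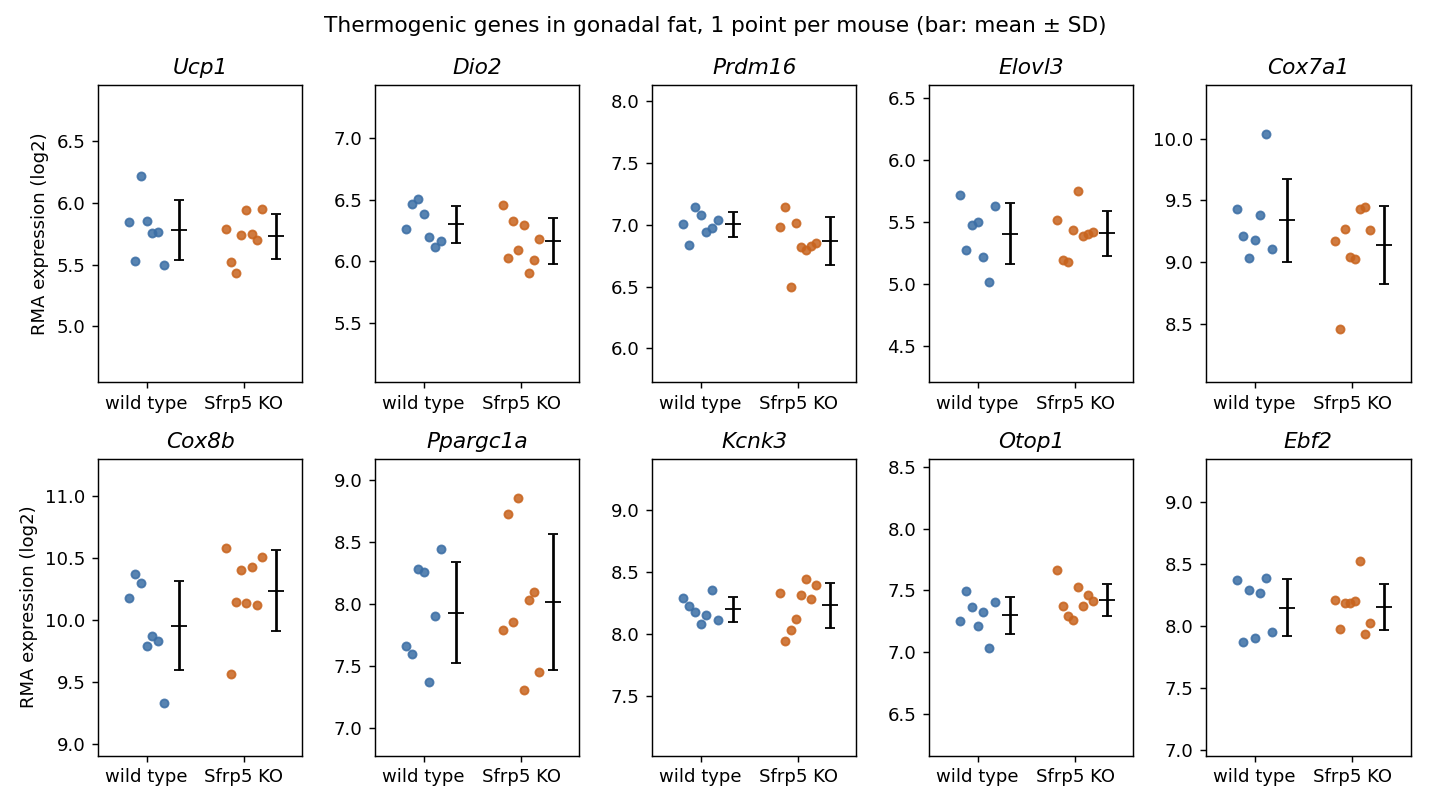
RMA expression (log2) of each thermogenic gene in 7 wild-type (blue) and 8 knockout (orange) mice, 1 point per mouse, with mean ± SD beside the points; every panel spans the same number of log2 units. The genotypes overlap in all 10 panels and Ppargc1a, Cox8b and Cox7a1 have the widest spread.

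No difference between the Sfrp5 genotypes passed the test for these genes. In limma's fit over 35557 probe sets, 0 of the 10 genes passed a Benjamini-Hochberg adjusted p of 0.05, where 0.0337% of all probe sets passed, and adjusted p ran from 0.624 for Cox8b to 0.993 for Elovl3. At an unadjusted p under 0.05 the count was also 0 of 10, beside 9.97% of all probe sets. Among the 19938 named genes, each by its brightest probe set, 1333 had an unadjusted p under 0.05 and 2 passed the adjusted threshold. Without knockout replicate 2, the array high in epididymis genes, limma gave Cox8b 0.38 (SE 0.14, unadjusted p = 0.0196) and Prdm16 -0.18 (SE 0.08, unadjusted p = 0.0363), neither past the adjusted threshold. Without that array and wild-type replicate 4, Cox8b had an unadjusted p of 0.0382. An exact two-sided permutation over all 6435 splits of the mice, 1 gene at a time, gave p from 0.113 for Prdm16 to 0.962 for Elovl3 and again passed none after adjustment over the 10 genes. In all, the knockout mean was the higher for 6 of 10 genes, with a median difference of 0.01, while 44.8% of 19938 named genes were higher, with a median of -0.01. Beside these values, mesothelial genes were higher in the knockout for 14 of 14 and endothelial genes lower for 13 of 14, none past the threshold in limma (4 and 0 at an unadjusted p under 0.05), and their part in the differences was not tested.

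The intervals show how large a difference the arrays leave room for. They were narrowest for Otop1, with a knockout level from 0.976 to 1.22 times the wild type, and Kcnk3, from 0.912 to 1.15. They were wide for Cox8b, from 0.954 to 1.55, for Cox7a1, whose log2 interval ran from -0.53 to 0.13, and for Ppargc1a, from -0.41 to 0.58 on that scale. For Ucp1, Dio2 and Elovl3 a fold on this scale understates a change in transcript where background adds to a faint signal. The sign of the difference turned for Ucp1, Elovl3, Ppargc1a and Ebf2 when single arrays were left out.

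**Figure D3:**
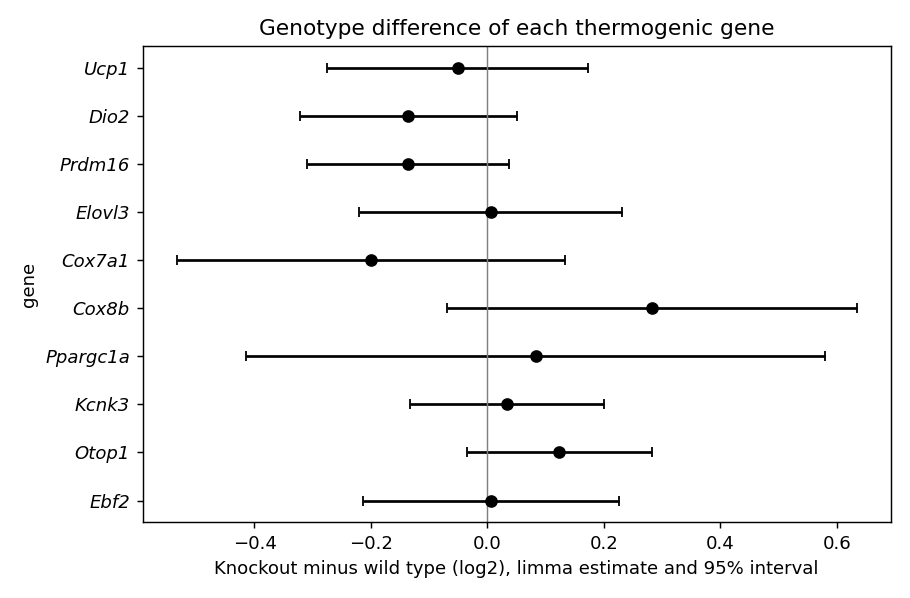
Knockout minus wild type (log2) for each thermogenic gene, with the limma estimate as a point and its 95% interval as a bar. All 10 intervals include 0, and the bar of Ppargc1a is the widest, from -0.41 to 0.58.

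Other genes of the thermogenic program also gave no difference past the adjusted threshold. Of 32 further brown and beige effectors 30 were measured, 16 higher and 14 lower in the knockout, with a median difference of 0.02 and none past the adjusted threshold in limma. Acot2, a mitochondrial acyl-CoA thioesterase, had the lowest p of that list, with 7.20 ± 0.14 (SD, n = 7) against 7.48 ± 0.19 (SD, n = 8), a difference of 0.28 (limma adjusted p = 0.263). It was the 1 effector with an unadjusted p under 0.05. Ckb, the creatine kinase of the futile creatine cycle, differed by 0.30 (SE 0.15) and Cyp2b10 by -0.13 (SE 0.06). Cidea, a lipid droplet protein of brown fat, read 6.18 ± 0.14 and 6.13 ± 0.21 (SD, n = 7 and 8).

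Regulators of the program were 12 higher and 15 lower of 27 measured, with a median of -0.03 and none past the threshold in limma. Ehmt1, the methyltransferase that acts with PRDM16, differed by -0.14 (SE 0.06; limma adjusted p = 0.400) and was the 1 regulator with an unadjusted p under 0.05. Ppargc1b, the paralog of Ppargc1a, differed by 0.13 (SE 0.09), and Zfp423, a repressor of beige fate in white adipocytes, by -0.09 (SE 0.07). The 3 beta-adrenergic receptors and Prkaca had no probe set with a single symbol and were not analysed here.

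Paralogs of the 10 genes were 10 higher and 13 lower of 23, with a median of -0.01 and 0 at an unadjusted p under 0.05. The lowest p among them belonged to Cox7a2, at 0.11, Ppargc1b, at 0.13, and Kcnk15, at 0.10. Other nuclear-encoded subunits of complex IV were 9 higher and 3 lower of 12, with a median of 0.07 and none past the threshold in limma. Beside this, 44.8% of all named genes were higher, with a median of -0.01. The 3 lower ones were Cox4i2, at -0.10, Cox8a, at -0.05, and Cox6a2, at -0.002. Cox7b differed by 0.16 (SE 0.05; limma adjusted p = 0.281), Cox6a1 by 0.15 (SE 0.06) and Cox5b by 0.08 (SE 0.04). Of the 12, 2 had an unadjusted p under 0.05, both higher, beside 1333 of 19938 named genes in either direction.

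Since mice of one genotype differed widely in Ppargc1a, Cox8b and Cox7a1, the next question was whether the thermogenic genes rose and fell together from mouse to mouse. Genotype means were subtracted and each pair was correlated over the 15 mice. Of 45 pairs 25 were positive and 20 negative, with a median r of 0.06. None passed an adjusted p of 0.05 by permutation of the mice, with Pearson's r or with Spearman's rho, and 4 had an unadjusted p under 0.05 with r.

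The closest pair was Cox7a1 and Kcnk3, with r = 0.68 (permutation p = 0.00438, adjusted p = 0.197) and rho = 0.59 (p = 0.0233, adjusted p = 0.369). It was positive in both genotypes, at 0.78 in wild type and 0.68 in the knockout, but was 0.45 without the 2 mice farthest from the median of Cox7a1. Kcnk3 also went with Cox8b, at r = 0.59 (permutation p = 0.0216, adjusted p = 0.314; rho = 0.46), which was 0.31 without the 2 farthest mice. Without knockout replicate 2, the array high in epididymis genes, these 2 values were 0.51 and 0.37.

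Ppargc1a went with Prdm16, at r = 0.58 (permutation p = 0.0218, adjusted p = 0.314; rho = 0.64), which was 0.63 without the 2 mice farthest in Prdm16 and 0.46 without knockout replicate 2. It ran opposite to Kcnk3, at r = -0.57 (permutation p = 0.0279, adjusted p = 0.314; rho = -0.49), which became -0.34 without the 2 farthest mice and -0.43 without knockout replicate 2. Ucp1 had r between -0.20 and 0.49 with the other 9 genes, the highest being that with Cox8b. None of these relations held after adjustment over the 45 pairs. With the white adipocyte list regressed out, an alternative chosen after seeing the data, r was 0.50 for Cox7a1 and Kcnk3, 0.37 for Cox8b and Kcnk3, 0.42 for Prdm16 and Ppargc1a, and -0.29 for Ppargc1a and Kcnk3.

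**Figure D4:**
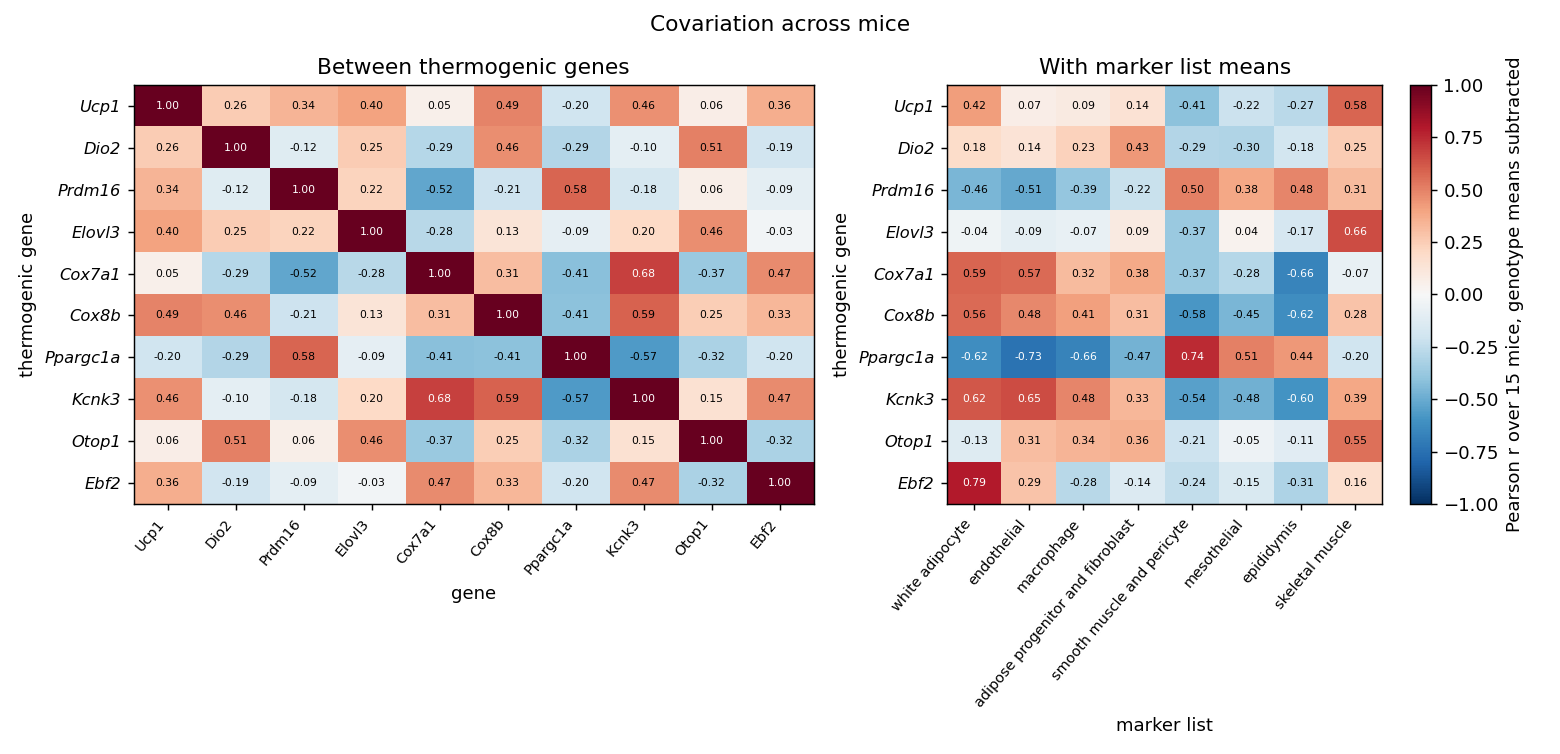
Pearson r over 15 mice with genotype means subtracted, between the 10 thermogenic genes (left) and between each gene and the mean of 8 marker lists (right); red is positive and blue negative. Ppargc1a has the opposite sign to Cox7a1, Cox8b and Kcnk3 for 7 of the 8 marker lists, skeletal muscle being mixed.

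The same mice differed in the levels of cell type markers, so each gene was set against the mean level of 8 lists of such markers, 80 relations in all. With Pearson's r, 3 passed after adjustment, 1 for Ebf2 and 2 for Ppargc1a, and the same number passed with rho. The number was 0 without any 1 of knockout replicates 1, 2, 6 and 8, 1 without wild-type replicate 6, and 2 to 4 without any other array.

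Ebf2 followed the white adipocyte genes, with r = 0.79 (permutation p = 0.000560, adjusted p = 0.0357) and rho = 0.79 (p = 0.000870, adjusted p = 0.0348). The relation was of like size in each genotype, at 0.82 in wild type and 0.77 in the knockout, and was 0.79 without the 2 mice farthest in the list. Of 14 adipocyte genes 13 were positively correlated with Ebf2, beside 54.0% of all named genes, led by Lipe, the gene of hormone-sensitive lipase, at 0.90, and the exception was Lep, the leptin gene, at -0.04. Ebf2 was 8.52 in knockout replicate 6, where the adipocyte list was highest, at 11.9. When 1 array or a pair was left out, or values were normalized anew, r stayed between 0.75 and 0.85. The relation passed in 15 of 22 other settings.

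Ppargc1a ran against the endothelial genes, with r = -0.73 (permutation p = 0.00134, adjusted p = 0.0357) and rho = -0.80 (p = 0.000690, adjusted p = 0.0348). It was -0.63 in wild type and -0.87 in the knockout, and -0.81 without the 2 mice farthest in the list. Of 14 endothelial genes 1 was positively correlated with it, Vwf at 0.00, beside 42.9% of all named genes, and the list had a median r of -0.65 beside -0.08. Robo4, a guidance receptor of vessels, was lowest at -0.76. It passed in 9 of 22 other settings, with r from -0.83 to -0.65, and with the second Ppargc1a probe set r was -0.48. Macrophage genes ran the same way, 1 of 16 positive beside the same 42.9%, with r = -0.66 for the list (permutation p = 0.00444, adjusted p = 0.0888), which missed the threshold.

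Ppargc1a followed the mean of smooth muscle and pericyte genes, with r = 0.74 (permutation p = 0.000980, adjusted p = 0.0357) and rho = 0.77 (p = 0.00133, adjusted p = 0.0355). It was 0.57 in wild type, 0.81 in the knockout and 0.67 without the 2 mice farthest in the list, and it passed in 14 of 22 other settings. Gene by gene that list was split, as 5 of 13 genes were positive with a median r of -0.25, close to the share over all named genes, 42.9%, whose median was -0.08. The positive genes were Cnn1 at 0.91, Myh11 at 0.79, Actg2 at 0.64, Tagln at 0.54 and Lmod1 at 0.08, and Cnn1 and Actg2, with SDs of 0.703 and 0.954 among mice, weigh most in the mean. The negative genes were Abcc9 at -0.81, Notch3 at -0.61, Cspg4 at -0.60, Rgs5 at -0.54, Acta2 at -0.46, Kcnj8 at -0.29, Smtn at -0.25 and Des at -0.11. Smooth muscle genes thus stood on both sides, with Acta2, Smtn and Des negative.

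**Figure D5:**
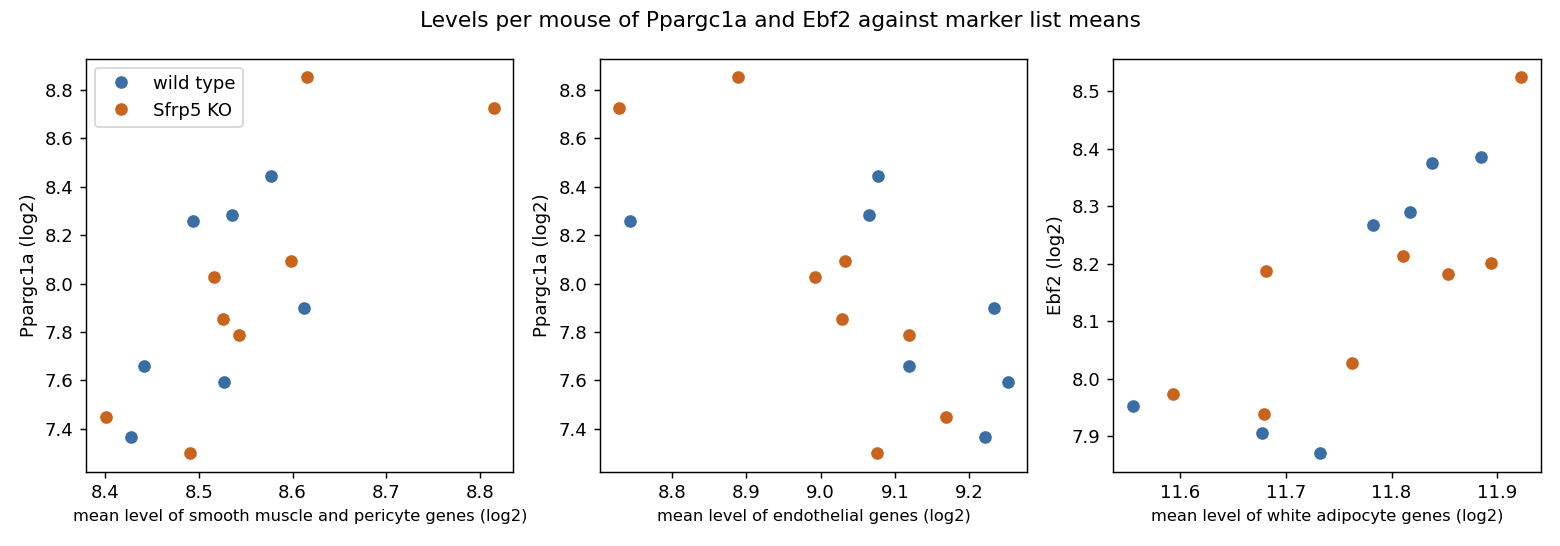
Level per mouse (log2) of Ppargc1a against the mean of 13 smooth muscle and pericyte genes and of 14 endothelial genes, and of Ebf2 against the mean of 14 white adipocyte genes, in wild-type (blue) and knockout (orange) mice. Knockout replicates 2 and 4 sit highest for Ppargc1a, and the genotypes overlap in each panel.

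Cox7a1, Cox8b and Kcnk3 had positive r with white adipocyte genes, at 0.59, 0.56 and 0.62, and negative r with epididymis genes, at -0.66, -0.62 and -0.60, with adjusted p from 0.112 to 0.153. With the endothelial list r was also positive, at 0.57, 0.48 and 0.65 (permutation, adjusted p = 0.154, 0.228 and 0.106). Without knockout replicate 2 it was 0.36 for Cox7a1 and 0.50 for Kcnk3. Without knockout replicate 2 the values with the epididymis list were -0.29, -0.26 and -0.21, and without wild-type replicate 4 as well that of Kcnk3 turned to 0.09. Those with the adipocyte list were 0.42, 0.40 and 0.48 without knockout replicate 2. They were 0.33, 0.004 and 0.44 without the 2 mice farthest in that list. Elovl3, Ucp1 and Otop1 were positively correlated with the skeletal muscle list, at 0.66, 0.58 and 0.55 (permutation, adjusted p = 0.106, 0.133 and 0.154). Gene by gene 13, 14 and 14 of the 17 muscle genes were positive, beside 58.3%, 58.8% and 58.5% of all named genes. The median r over the muscle genes was 0.28, 0.29 and 0.20. In wild type r with the list was 0.39, 0.32 and 0.42, and in the knockout 0.93, 0.84 and 0.67. Whether it differs between the genotypes was not tested. Elovl3 and Ucp1 themselves lay within the range of weak signal. So did part of the muscle genes, such as Myh4, Myh1 and Tcap, while others, such as Acta1 and Myl1, lay above it. Apart from the values with the adipocyte list regressed out, the part of cell makeup in these relations was not tested.

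Over all named genes, likeness to Ppargc1a was far more common than likeness to the other thermogenic genes. A correlation of 0.8 or more in size was found for 575 genes, 2.88% of those named, against 9 for Dio2 and 16 for Ucp1 at the low end and 109 for Kcnk3 and 103 for Ebf2. The first principal component of the arrays, which held 23.3% of the variance after genotype means were removed, had r = 0.84 with Ppargc1a, -0.81 with Kcnk3 and -0.71 with Cox8b. The same component had r = -0.88 with the endothelial list and 0.71 with the epididymis list. Its score was highest in knockout replicate 2, the array with the strongest epididymis signal, where it reached 0.59. Second came wild-type replicate 4, also raised in those genes, with 0.41. The lowest score, -0.33, belonged to knockout replicate 8. The component thus rests in large part on these few arrays. No value without them is given here for the component or for the gene counts above.

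The genes most like Ppargc1a across the 15 mice were Nt5e (r = 0.94), Gipc2 (0.93) and Sfrp1 (0.93), the last a relative of Sfrp5. Those most like Ebf2 were Chst1 (r = 0.93) and the mitochondrial genes Sdhb (0.91), a subunit of complex II, and Atpaf1 (0.91), an assembly factor of ATP synthase. Cox7a1 was most like Ang2 (r = 0.90), Samd9l (0.85) and Gaa (0.85), Cox8b most like Grb2 (0.88), Olfr870 (0.85) and Acot8 (0.85), and Kcnk3 most like Ap3d1 (0.90), Rgs19 (0.89) and Rtn2 (0.88). For Prdm16 the nearest were C1ql4 (r = 0.88), Esyt3 (0.88) and Synpo2l (0.85), and for Otop1 Cplx4 (0.88), Cpne7 (0.87) and Tbl3 (0.86). For the faint genes the nearest were Slc12a9, Shc3 and Ano4 for Ucp1 (all 0.85), Gpr137c (0.90), Cpox (0.85) and Olfr1226 (0.83) for Dio2, and Stx1a (0.90), Klhdc8a (0.90) and Slitrk5 (0.88) for Elovl3. These are the highest values over all named genes and carry no test.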

How the data were processed

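The deposited values are log2 expression per probe set, 35557 probe sets in 15 arrays, made by the authors with RMA, per the submitters' processing notes, which name affy 1.18, Affymetrix Expression Console 1.1.2800.19935 and limma without saying what each did. The build behind the authors' probe set annotation is not stated in the labels or file headers. RMA makes arrays alike in distribution, so a shift shared by most genes is not visible. Per the labels, wild-type arrays hold positions 1 to 7 and knockout arrays the later ones, so order and genotype cannot be told apart.

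Gene names came from the platform annotation, in which 21789 probe sets carried 1 symbol, 1621 several and 12147 none, and 21698 of the first matched the RefSeq gene table. The genotype test was that of limma 3.58.1 (R 4.3.3), adjusted over all probe sets at 0.05, without a filter. SDs are over mice and SEs are moderated. Correlations used 100000 permutations of the mice, and adjustment ran within each family of relations. Scripts were tested on simulated data. The members and all lists were chosen with earlier results of these data known. The genes named are the members, the 3 with the lowest p in each pathway list, the 3 most like each member leaving out predicted genes, Sfrp5 and the first 2 of each marker list; others were chosen after their values were seen. Alternatives tried were normalization, dim probe sets left out, the variance model, array weights, averaging the probe sets of a gene, leaving out arrays and the replicate block. The number of arrays limits the precision.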

Additional observations from a re-analysis of the deposited data

Results flagged for a closer look

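In 36 groups of 7 or 8 values, those of the 10 genes and of the 8 marker list means in each genotype, 8 values stood apart from the rest of their group by Dixon's test, where chance gives about 1 in 20 groups. Knockout replicate 2 held the lowest Cox7a1, at 8.46, and the lowest Cox8b, at 9.56, and also the highest mean of epididymis genes, at 10.1. The next lowest knockout values were 9.03 for Cox7a1 and 10.1 for Cox8b. Wild-type replicate 6 held the highest Cox7a1, at 10.0, with the next at 9.43. Ebf2 was highest in knockout replicate 6, at 8.52, with the next at 8.21. Macrophage genes averaged 9.76 in knockout replicate 8. In wild-type replicate 4 the epididymis genes were highest, at 7.08, and the endothelial genes lowest, at 8.74. What these arrays share beyond the values given was not tested.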

How the results depend on the processing

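No thermogenic gene passed limma's threshold in any of 26 other fits, where the lowest adjusted p was 0.443, and none of the 4 pathway lists gained a gene. Dio2, Prdm16, Cox8b and Otop1 kept their sign in every fit, with differences of -0.18 to -0.10, -0.18 to -0.08, 0.18 to 0.38 and 0.08 to 0.16 when 1 array was left out, and Cox7a1 had -0.25 to -0.08 there. The same step gave -0.10 to 0.022 for Ucp1, -0.059 to 0.057 for Elovl3, -0.037 to 0.185 for Ppargc1a and -0.047 to 0.046 for Ebf2. Signs also turned for Elovl3 and Ebf2 with median centring (-0.0023 and -0.0017), for Ebf2 with array weights (-0.00073) and without wild-type 4 and knockout 2 (-0.0085), and for Kcnk3 without knockout 7 and 8 (-0.0024). With these 2 as the only knockout arrays they turned for Ucp1 (0.046), Cox7a1 (0.015), Ppargc1a (-0.16) and Ebf2 (-0.17), and without wild-type 2 and knockout 8, chosen after seeing the data, for Elovl3 (-0.017) and Ebf2 (-0.022). With the replicate number as a block the median difference was 0.01 and 0 genes passed. Deviations of same-numbered mice correlated from -0.12 to 0.25, over 0.1 in 3 of 7 pairs. No value for differently numbered mice was set beside these, so they cannot decide whether the numbers pair the mice. Member pairs past the threshold numbered 0, and 0 to 1 when 1 array was left out, the 1 being without knockout replicate 3. Marker relations past it, 3 in all, numbered 0 to 4 when 1 array was left out, 1 without wild-type 4 and knockout 2, 0 without knockout 7 and 8, and 1 without wild-type 2 and knockout 8; the cause was not tested.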

Other observations

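Relations between the 10 thermogenic genes and the 30 measured brown and beige effectors were computed after the data had been seen, 300 in all. With Pearson's r 4 passed after adjustment, and with Spearman's rho none did. The number was 0 without wild-type replicate 7 or knockout replicate 2, 2 without knockout replicate 5 and 11 without knockout replicate 3. Cox8b followed Slc36a2, an amino acid transporter used as a surface marker of brown adipocytes, with r = 0.83 (permutation p = 7e-05, adjusted p = 0.0150) and rho = 0.81 (adjusted p = 0.109). The relation was 0.83 in wild type and 0.84 in the knockout, 0.86 without the 2 mice farthest in Slc36a2 and 0.76 without knockout replicate 2. It passed in 18 of 22 other settings. Slc36a2 read 8.73 ± 0.23 (SD, n = 7) and 8.78 ± 0.28 (SD, n = 8).

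Ppargc1a followed Fbp2, the fructose bisphosphatase of muscle, with r = 0.83 (permutation p = 0.000190, adjusted p = 0.0190; rho = 0.72), and Mpzl2, an adhesion protein, with r = 0.80 (permutation p = 0.000490, adjusted p = 0.0367; rho = 0.77). It ran against Gamt, an enzyme of creatine synthesis, with r = -0.83 (permutation p = 0.000100, adjusted p = 0.0150; rho = -0.74). Without the 2 farthest mice these were 0.74, 0.78 and -0.73. Of 22 other settings, the relation with Fbp2 passed in 17, that with Mpzl2 in 7 and that with Gamt in 18. Fbp2 varied widely, from 6.06 to 8.91, and had r = 0.63 with Ppargc1a in wild type and 0.93 in the knockout. Whether the relation differs between the genotypes was not tested.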
